A study of Homo sapiens with 96 samples.

Results

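The heat shock proteins described here are 10 human genes of protein folding: the cytosolic HSP70 proteins HSPA8, HSPA1A and HSPA1B, the HSP90 protein HSP90AA1, the cofactors HSPH1 and DNAJB1, the small heat shock protein HSPB1, the mitochondrial chaperonin pair HSPD1 and HSPE1, and the transcription factor HSF1. Their symbols were listed with earlier results of these data known, and the genes were then found by matching the Ensembl identifiers of the table to the symbols, a step that uses no measured value. All 10 were found among the 58434 genes of the table, and all 10 passed the filter on low values in both fits. Polyadenylated RNA was sequenced in 96 libraries, 8 in each of 12 groups, all derived from the established human embryonic stem cell line H9. The first group was neural progenitor cells (NPC) on day 0, and the second was unexposed co-cultures of neurons and astrocytes on day 10 (control). The other 10 groups were such day 10 co-cultures exposed to acrylamide, chlorpyrifos, fluoxetine, methyl mercury (MeHg) or valproic acid, each at 2 concentrations. IC5 is the concentration that inhibits by 5%, and IC20/100 is read here as the 20% inhibitory concentration diluted 100-fold. The solvent was culture medium for acrylamide and valproic acid, and DMSO, at a final 0.25%, for chlorpyrifos, fluoxetine and MeHg. The labels give no molar concentration, no length of exposure and no word on DMSO in controls, so an effect of DMSO and one of the latter 3 compounds cannot be told apart. The 8 libraries of a group came from 1 experiment, so every p-value below measures only the spread between these libraries, which may be technical.

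Heat shock proteins bind unfolded or partly folded proteins and keep them from aggregating. HSP70 proteins work in cycles of ATP hydrolysis that J-domain proteins such as DNAJB1 start and nucleotide exchange factors such as HSPH1 complete, and HSP90 acts on later folding steps of kinases and steroid receptors. HSF1 is held inactive by chaperones and, when unfolded proteins draw these away, forms trimers that bind heat shock elements, arrays of the 3-base unit GAA in alternating orientation, upstream of chaperone genes. HSPA8 and HSP90AA1 are also abundant in unstressed neural cells, whereas HSPA1A, HSPA1B, DNAJB1 and HSPB1 are classical stress-induced genes.

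Stretches upstream of RefSeq starts of the genes are shown first, because the array of these units differs between the members. In the 250 bases upstream of each RefSeq start (GRCh38.p14), 2 adjoining units were searched as GAANNTTC or TTCNNGAA on both strands, and 3 units as either of these followed, after any 2 bases, by a further unit in the alternate orientation. A match of 3 units also holds 2 overlapping matches of 2 units. Of 35116 RefSeq promoters, 11.6% held at least 1 match of 2 units and 0.441% a match of 3. HSPA8 had 4 matches of 2 units and 2 of 3 units. At 1 of the starts listed for each gene, HSPD1 had 3 and 2, HSP90AA1 had 3 and 1, and DNAJB1 had 2 and none, and their other starts (1 for HSPD1, 1 for HSP90AA1 and 2 for DNAJB1) had no match. HSPA1A, HSPA1B and HSPB1 had 1 match of 2 units each and none of 3, and the searched stretches of HSPH1 and HSPE1 held none. HSF1 was left out of this search of the members. For each gene with a match, 30 bases are printed 5′ to 3′ on the gene's strand, with the matched units in capitals. The first 3 carry a match of 3 units, and the other 4 a match of 2. The final capital in the HSP90AA1 line is the first base of the next match.
HSPA8, chr11:123062171-123062200, minus strand: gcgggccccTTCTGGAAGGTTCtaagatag
HSP90AA1, chr14:102087112-102087141, minus strand: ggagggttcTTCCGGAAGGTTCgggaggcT
HSPD1, chr2:197500060-197500089, minus strand: cattTTCTGGAAAGTTCTGGAAccgagcga
DNAJB1, chr19:14518426-14518455, minus strand: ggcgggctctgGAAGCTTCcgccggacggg
HSPA1A, chr6:31815426-31815455, plus strand: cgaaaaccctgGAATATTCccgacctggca
HSPA1B, chr6:31827622-31827651, plus strand: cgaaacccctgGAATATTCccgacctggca
HSPB1, chr7:76302480-76302509, plus strand: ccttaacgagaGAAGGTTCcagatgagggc
These matches are letters only, and binding of HSF1 was not measured. The stretches of HSPA8, HSP90AA1, HSPD1 and DNAJB1 lie inside the GENCODE bounds of these genes given below, whose outermost starts lie farther upstream. All 250 bases searched before the matching starts of HSPA8 and HSPD1 overlap annotated exons. The 250 bases upstream of HSPA1A and HSPA1B were 94% identical over their length, which the near-identical lines above show on a small scale. HSPD1 and HSPE1 stand head to head on chromosome 2, and the array printed for HSPD1 lies outside the stretch searched for HSPE1, which ran from 197500129 to 197500378.

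The libraries held 9.49 to 29.6 M recovered reads (M, megareads; median 18.9 M), so counting error is small for all members. The files hold normalized read counts, meaning gene counts divided by 1 size factor per library. Summed markers of dividing cells (MKI67, TOP2A, CCNB1) ranged from 17280 to 20840 in NPC, from 7741 to 10330 in controls, from 12410 to 14650 under acrylamide IC5 and from 10150 to 13810 under valproic acid IC5. Against controls, MKI67 was called higher in 7 of the 10 exposures, CCNB1 in 4 and TOP2A in 2. The 6 neuron markers summed to 59280 to 65680 in NPC and 79750 to 86270 in controls, and the 5 astrocyte markers to 757.8 to 1235 and 1773 to 2429. Neural progenitor markers (NES, SOX2, PAX6, FABP7, HES5) summed to 49450 to 55120 in NPC and 23900 to 26580 in controls, and 5 mesenchymal markers to 3054 to 4251 and 1300 to 1688. Of the astrocyte markers, AQP4 averaged under 10 in controls, and GFAP and ALDH1L1 averaged under 10 in NPC. All 4 microglia markers averaged under 10 in NPC, in controls and under acrylamide and valproic acid IC5. The share of mitochondrially encoded reads averaged 2.47% in controls, 3.10% under acrylamide IC5 and 3.05% under valproic acid IC5. In the other exposed groups it averaged from 2.50% (acrylamide IC20/100) to 2.81% (chlorpyrifos IC5). MeHg IC20/100 replicate 8 stood apart from its group in 5 of the 10 members, and the calls of its group and the correlations between libraries are given with and without it. In bulk RNA, fewer cells of a type and less RNA per cell cannot be told apart.

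Per kilobase of the principal GENCODE transcript, HSPA8 and HSP90AA1 were the most abundant members in controls, at normalized read counts of 4770 and 4460 per kilobase. HSPD1 followed at 3195 and HSPE1, its co-chaperonin, at 1268. HSPB1, HSF1, HSPA1B, HSPA1A, DNAJB1 and HSPH1 lay between 935 and 284 per kilobase. In NPC the first pair stood at 11810 and 10240 per kilobase and HSPB1, at 624, was near HSF1 at 605 and HSPA1B at 664.

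**Figure D1:**
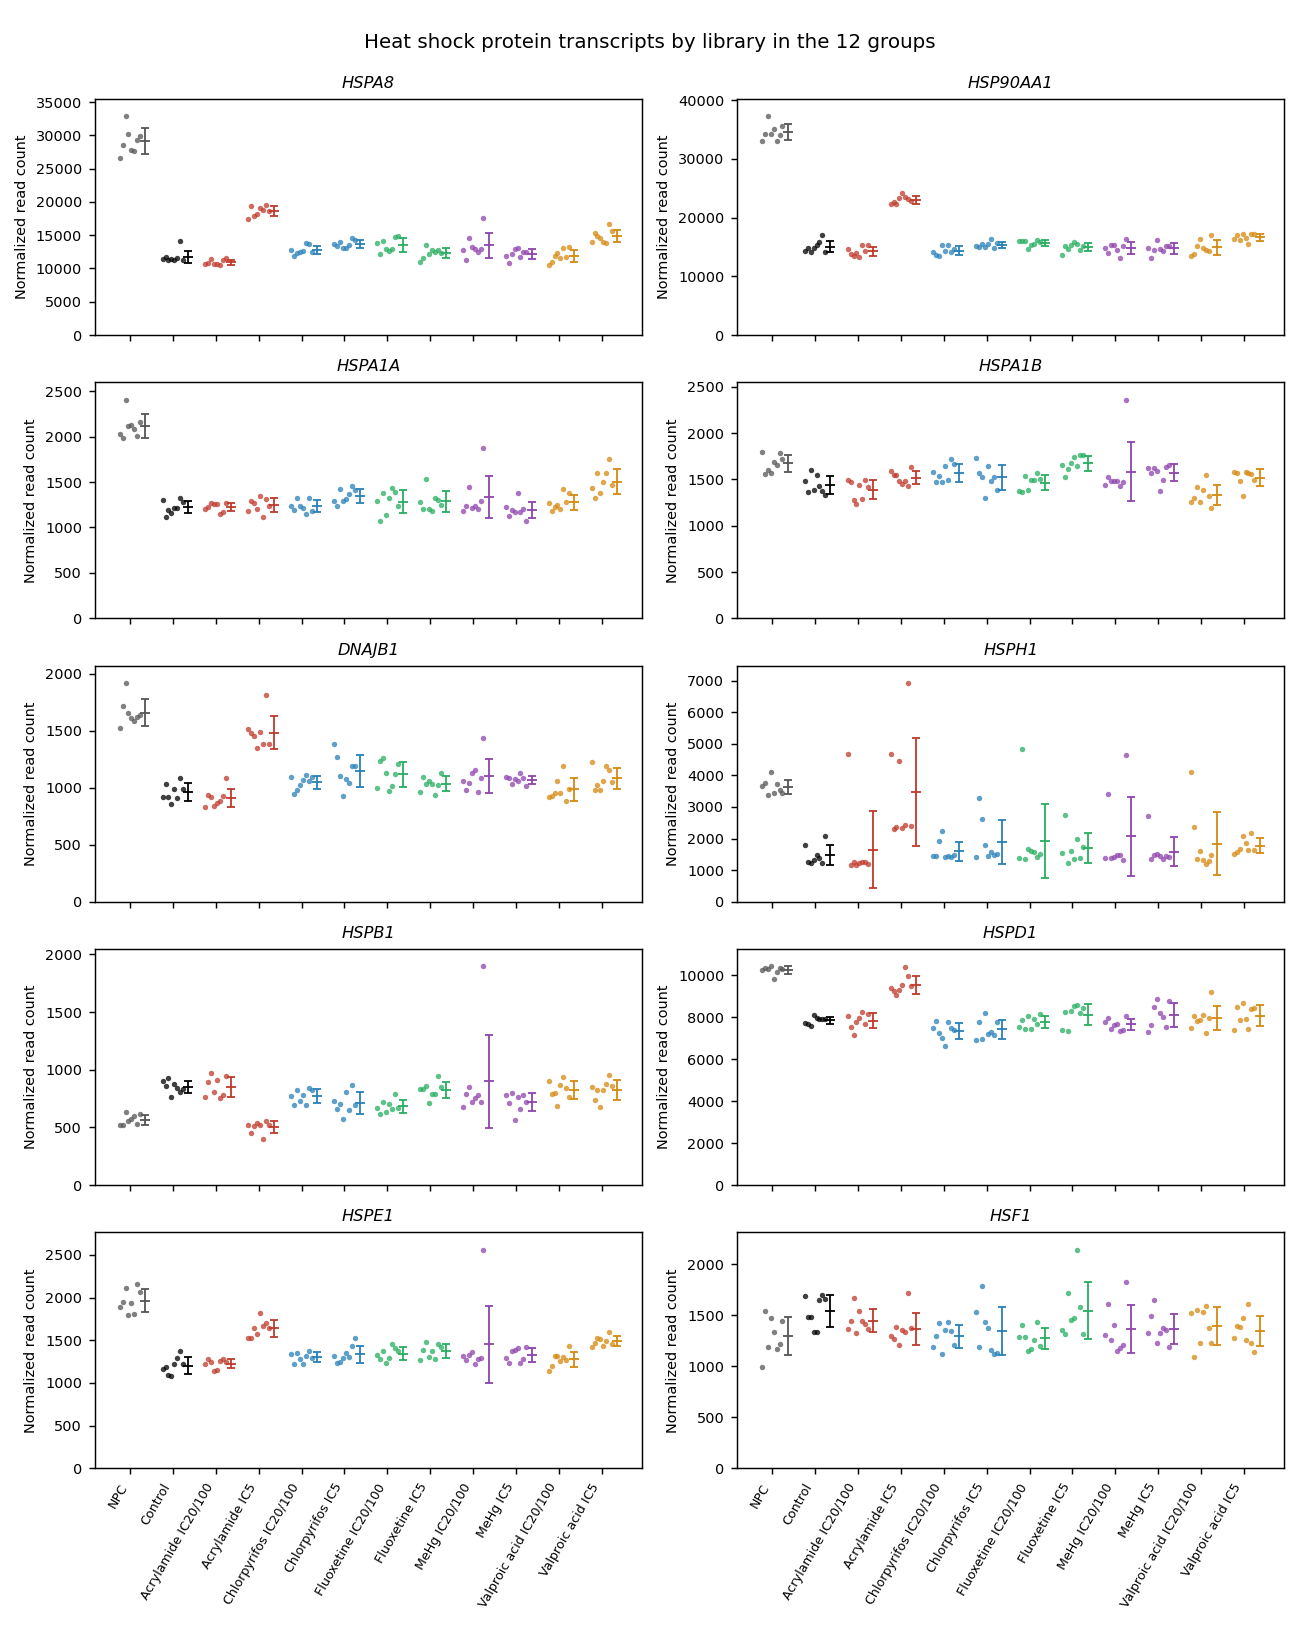
Normalized read count (y axis, linear, from 0) of the 10 genes in each of the 96 libraries (points), with mean ± SD of 8 libraries beside each of the 12 groups (x axis). The means of NPC and acrylamide IC5 stand above those of the other groups for HSPA8, HSP90AA1, DNAJB1, HSPD1 and HSPE1 and below them for HSPB1. Single libraries of other groups overlap theirs for HSPA8, DNAJB1, HSPD1, HSPE1 and HSPB1. For HSPA8, MeHg IC20/100 reached 17554, above the lowest acrylamide IC5 library at 17397. The acrylamide IC5 libraries of HSPA1A and HSPA1B lie among the controls.

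The comparison of control with NPC gives the change from progenitor to day 10 co-culture. All 10 members differed in it: 8 were lower in the co-cultures, with HSPA8, HSPH1 and HSP90AA1 at 0.404, 0.405 and 0.435 times their NPC mean, and HSPB1 and HSF1 were higher. Of all 18063 genes tested, 70.7% were called at an adjusted p under 0.05, 33.9% higher and 36.8% lower in controls, so a call alone is common in this comparison. Every member had the same sign in all 6 sequencing runs, and 8 of the 10 had no overlap between the groups, the exceptions being HSPA1B and HSF1. For the 8 without overlap the sign within runs follows from it and adds no support. How many of all genes had no overlap was not counted, here or in the comparisons below.

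HSPA8 (ENSG00000109971.14, chromosome 11, 123057489 to 123063230, minus strand), the constitutive cytosolic HSP70, ran from 26582 to 32842 in NPC with a median of 28926. Its control libraries lay at 11258 to 11648 in 7 of 8 and at 14057 in replicate 7, and every one was below the lowest NPC library. The log2 fold change of control against NPC was -1.33 ± 0.04 (SE; limma, adjusted p = 1.15e-10). HSP90AA1 (ENSG00000080824.18, chromosome 14, 102080738 to 102139699, minus strand), the inducible cytosolic HSP90, ran from 33064 to 37259 in NPC and from 14155 to 17022 in controls, with medians of 34248 and 14819. These groups did not overlap either, with a log2 fold change of -1.20 ± 0.04 (limma, adjusted p = 1.15e-10).

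HSPH1 (ENSG00000120694.19, chromosome 13, 31134974 to 31162388, minus strand), the HSP110 exchange factor, had a median of 3606 in NPC (3387 to 4100) and of 1353 in controls (1220 to 2085). The difference was -1.35 ± 0.11 on the log2 scale (limma, adjusted p = 2.43e-07). DNAJB1 (ENSG00000132002.8, chromosome 19, 14514770 to 14529770, minus strand) averaged 1658 ± 118 (SD, n = 8) in NPC and 964 ± 76.6 in controls, a log2 fold change of -0.81 ± 0.05 (limma, adjusted p = 2.65e-08). HSPA1A (ENSG00000204389.9, chromosome 6, 31815464 to 31817946, plus strand) fell by 0.81 ± 0.04 on the log2 scale (limma, adjusted p = 2.82e-09), from 2115 ± 132 to 1225 ± 70.9. HSPA1B (ENSG00000204388.7, chromosome 6, 31827735 to 31830255, plus strand) fell by only 0.19 ± 0.03 (limma, adjusted p = 0.000356), from 1674 ± 92.5 to 1440 ± 94.1, and its ranges overlapped.

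HSPA1A and HSPA1B encode nearly the same protein, and their principal transcripts were 96.1% identical over 2398 aligned bases. Of the 31-base words in the principal transcript, 74.3% of those of HSPA1A and 74.4% of those of HSPA1B occur in other genes' transcripts, so the division of reads between the copies is uncertain. Their sum does not depend on the division between these copies. It was 3789 ± 135 in NPC and 2665 ± 113 in controls, a log2 fold change of -0.51 ± 0.03 (limma, adjusted p = 1.88e-08). A further gene, AL671762.1, holds 35.1% of the words of HSPA1A and 35.8% of those of HSPA1B. It is not in the sum, so a division of reads with it remains uncertain. Shared words made up 41.1% in HSPA8, 46.5% in HSPD1 and 37.5% in HSP90AA1, with pseudogenes as the leading sharers, against 0.329% in HSPH1 and 0 in HSF1. In HSPE1 they made up 31.5%, led by the readthrough gene HSPE1-MOB4 (17.7%), which averaged 320 in controls.

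The mitochondrial pair was also lower in the co-cultures. HSPD1 (ENSG00000144381.17, chromosome 2, 197486581 to 197516737, minus strand), the HSP60 ring, went from 10240 ± 192 to 7843 ± 174, and HSPE1 (ENSG00000115541.11, chromosome 2, 197499994 to 197503457, plus strand), its HSP10 lid, from 1964 ± 136 to 1205 ± 96.9. Their log2 fold changes were -0.38 ± 0.02 (limma, adjusted p = 1.20e-08) and -0.70 ± 0.05 (limma, adjusted p = 8.54e-08). HSPB1 (ENSG00000106211.9, chromosome 7, 76302544 to 76304295, plus strand), a small chaperone that holds unfolded proteins without ATP, rose from 567 ± 43.6 to 850 ± 52.5. Its libraries did not overlap (519 to 630 against 762 to 928), and the log2 fold change was 0.57 ± 0.06 (limma, adjusted p = 2.98e-06). HSF1 (ENSG00000185122.11, chromosome 8, 144291591 to 144314722, plus strand) rose from 1296 ± 187 to 1544 ± 154, by 0.23 ± 0.06 on the log2 scale (limma, adjusted p = 0.00527), with overlapping libraries. Between the same groups 3 of 3 markers of dividing cells and 5 of 5 mesenchymal markers fell, and of the 5 neural progenitor markers 3 rose and 2 fell while their sum fell without overlap. Of the 6 neuron markers 4 rose and 1 fell, and of the 5 astrocyte markers 2 rose and 2 fell. The part of these markers in the differences was not tested.

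**Figure D2:**
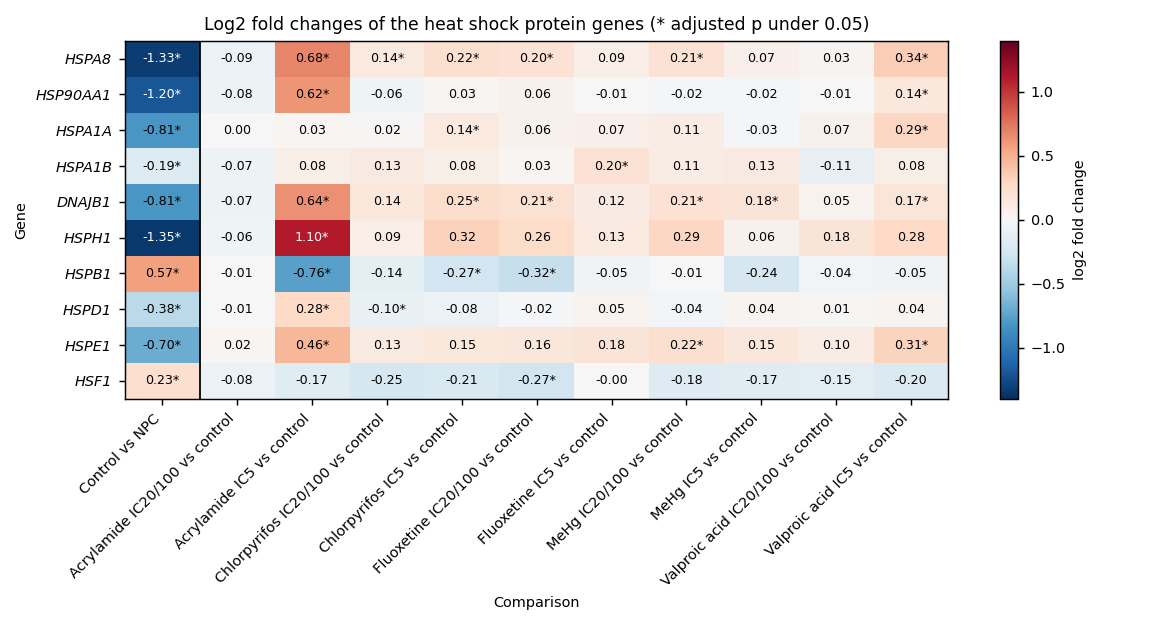
Fitted log2 fold change (colour and printed value) of each gene (y axis) in control against NPC and in the 10 exposed groups against control (x axis), with an asterisk where the adjusted p was under 0.05. The column of acrylamide IC5 has 7 asterisks, 6 of them on rises, and the columns of acrylamide IC20/100 and valproic acid IC20/100 have none.

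The 10 exposures share 1 set of 8 control libraries, so their comparisons are not independent. Acrylamide, an electrophile that reacts with protein thiols, at IC5 changed more members than any other exposure: 7 of 10, with 6 higher and HSPB1 lower. Over all 20136 genes tested, 42% were called, 20.5% higher and 21.5% lower. Each of the 7 had no overlap with the controls. Its direction was then necessarily the same in 6 of 6 sequencing runs, which adds no support. The share of all genes without overlap was not counted, so this is a description of the 7 only.

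HSPA8 ran from 17397 to 19574 under acrylamide IC5, with a median of 18682, and every library was above the highest control. The mean was 1.58 times that of the controls, a log2 fold change of 0.68 ± 0.05 (limma, adjusted p = 3.48e-21), and 0.59 to 0.74 within runs. HSP90AA1 ran from 22326 to 24272 (median 23039), 1.53 times the control mean. Its log2 fold change was 0.62 ± 0.04 (limma, adjusted p = 3.37e-24). DNAJB1, the J-domain starter of the HSP70 cycle, ran from 1349 to 1516 in 7 libraries and reached 1817 in replicate 7, against 855 to 1088 in controls. Its log2 fold change was 0.64 ± 0.06 (limma, adjusted p = 9.89e-15).

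HSPD1 rose to 9542 ± 430 (9074 to 10386, against 7563 to 8082 in controls), by 0.28 ± 0.03 on the log2 scale (limma, adjusted p = 2.82e-10). HSPE1 rose to 1641 ± 97.1 (1529 to 1821, against 1082 to 1374), by 0.46 ± 0.07 (limma, adjusted p = 9.72e-09). HSPB1 went the other way, to 501 ± 53.2 with libraries from 396 to 558, all below the lowest control at 762. Its log2 fold change was -0.76 ± 0.09 (limma, adjusted p = 1.36e-10), and -1.09 to -0.64 within runs.

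The HSP70 copies classically induced by heat did not pass the test under acrylamide IC5. HSPA1A was at 1245 ± 75.6, a log2 fold change of 0.03 with a 95% interval of -0.07 to 0.14 (limma, adjusted p = 0.681), and HSPA1B at 1520 ± 70.6 with 0.08 and -0.04 to 0.19 (limma, adjusted p = 0.293). Their sum was 2765 ± 88.7, 0.06 ± 0.04 above controls on the log2 scale (limma, adjusted p = 0.335). HSF1 was at 1368 ± 154, with a log2 fold change of -0.17 and an interval of -0.35 to 0.01 (limma, adjusted p = 0.12). In the same libraries 3 of 3 markers of dividing cells were higher, as was the mitochondrial read share. Neuron markers summed to 75320 to 79380, below all controls, with 2 of 6 called lower, and of the 5 neural progenitor markers 3 were called lower and 1 higher (sum 22660 to 24890). Their part in these results was not tested.

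HSPH1 was uneven. Under acrylamide IC5, 5 libraries lay between 2308 and 2433 and replicates 4, 1 and 7 at 4444, 4666 and 6924, while the controls ran from 1220 to 2085. All 8 were thus above every control, with a log2 fold change of 1.10 ± 0.24 (limma, adjusted p = 0.000105). Within runs the difference ranged from 0.58 to 2.22. Leaving out any 1 library of either group gave 0.96 to 1.18.

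Single libraries with high HSPH1 occurred in most groups. Of the 88 day 10 libraries, 15 exceeded 1.5 times the median of their own group, in 10 of 11 groups and 5 of 6 sequencing runs. The group without one was valproic acid IC5, where the libraries ran from 1511 to 2170. Sequencing runs 3 and 6 held 5 each, run 2 held 3, and runs 4 and 5 held 1 each. Those of acrylamide IC5 (replicates 1, 4 and 7) were in runs 3 and 6. The highest ratios to the group median were 3.78 in acrylamide IC20/100 replicate 1, 3.20 in MeHg IC20/100 replicate 8 and 3.13 in fluoxetine IC20/100 replicate 2. Across the 88 libraries, within groups, the correlation of HSPH1 with each other member lay between -0.118 (HSPA8) and 0.228 (HSPB1). Without MeHg IC20/100 replicate 8 it lay between -0.304 (HSPA8) and 0.155 (HSF1), with HSPB1 at 0.0449.

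**Figure D3:**
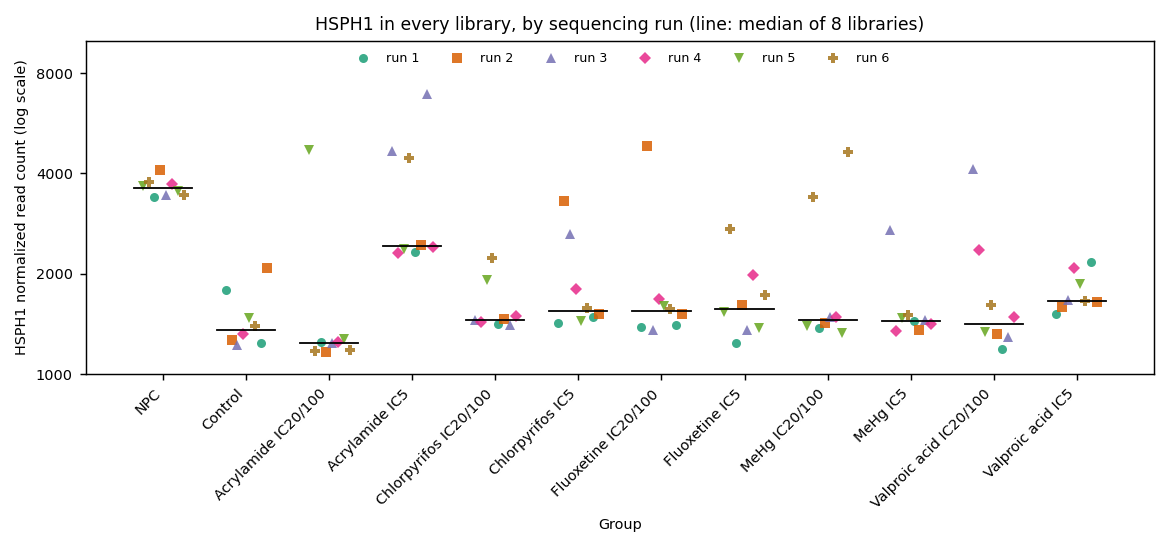
HSPH1 normalized read count (y axis, log scale) in each library of the 12 groups (x axis), with the sequencing run as symbol and the median of 8 libraries as a line. The medians of the exposed groups other than acrylamide IC5 lie between 1240 and 1657, with single libraries far above them, up to 4825.

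At IC20/100 acrylamide left no member past the test (limma), and 0.0596% of all genes were called. HSP90AA1 had the only unadjusted p under 0.05 among the members, and edgeR and DESeq2 also called 0. HSPA8 stood at 10926 ± 415 and HSPB1 at 852 at this concentration. Tested directly, IC5 against IC20/100 of acrylamide gave 8 members, 7 higher and 1 lower at IC5, where 41.1% of all genes were called, 20% higher and 21.1% lower. The log2 differences were 0.77 for HSPA8, 0.70 for HSP90AA1, 1.16 for HSPH1, 0.71 for DNAJB1, 0.28 for HSPD1, 0.44 for HSPE1 and -0.75 for HSPB1. HSPA1B differed by 0.14 ± 0.06 (limma, adjusted p = 0.0367), but the sum of both copies by 0.09 ± 0.04 (limma, adjusted p = 0.0964), which did not pass. The HSPA1B call was lost without acrylamide IC20/100 replicate 3, 4 or 6 or acrylamide IC5 replicate 1, 2, 6 or 8.

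Valproic acid, an antiepileptic drug and histone deacetylase inhibitor, at IC5 raised 5 members and lowered none. Of all genes tested, 26.9% were called in either direction and 14.5% higher. HSPA8 ran from 13897 to 16628, above 7 of the 8 controls and partly below control replicate 7. Its log2 fold change was 0.34 ± 0.05 (limma, adjusted p = 1.08e-08). HSPE1 was the only member without overlap, at 1424 to 1600 against 1082 to 1374 in controls, with 0.31 ± 0.06 (limma, adjusted p = 9.74e-05).

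HSPA1A ran from 1321 to 1752 under valproic acid IC5 and from 1118 to 1322 in controls, ranges that met only at their edge. It rose by 0.29 ± 0.05 on the log2 scale (limma, adjusted p = 5.96e-06), and the sum of both copies by 0.18 ± 0.04 (limma, adjusted p = 0.000944). HSP90AA1 rose by 0.14 ± 0.04 (limma, adjusted p = 0.00189) and DNAJB1 by 0.17 ± 0.06 (limma, adjusted p = 0.0317). The DNAJB1 call was lost without control replicate 1, 3, 4 or 6 or valproic acid IC5 replicate 1, 5, 6 or 7, with adjusted p up to 0.0778. Dividing-cell markers were higher here too, 3 of 3 called. Neural progenitor markers summed to 30520 to 32610, above all controls, with 3 of 5 called higher and 1 lower. The part of these markers was not tested.

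Valproic acid at IC20/100 changed no member (limma; 0 with an unadjusted p under 0.05; 0 by edgeR and DESeq2), where 2.54% of all genes were called. IC5 exceeded IC20/100 for 5 members, with 17% of all genes called and 9.73% higher. HSPA8 differed by 0.31 ± 0.05, HSPA1A by 0.23 ± 0.05, HSPE1 by 0.21 ± 0.07, HSPA1B by 0.19 ± 0.06 and HSP90AA1 by 0.15 ± 0.04 on the log2 scale (limma, adjusted p from 4.41e-07 to 0.0152). The sum of HSPA1A and HSPA1B differed by 0.21 ± 0.04 (limma, adjusted p = 0.000259).

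**Figure D4:**
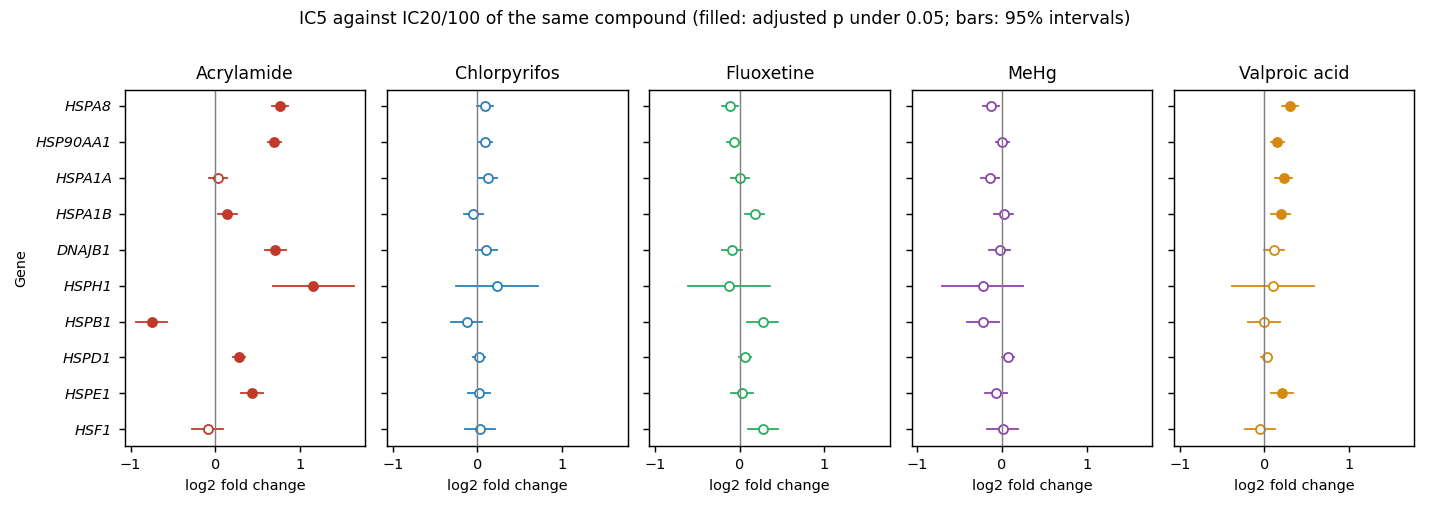
Log2 fold change of IC5 against IC20/100 (x axis) of each gene (y axis) for the 5 compounds, with 95% intervals as bars and filled points where the adjusted p was under 0.05. Acrylamide has 8 filled points, valproic acid 5, and chlorpyrifos, fluoxetine and MeHg none, and the HSPH1 intervals are the widest in every panel.

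The groups exposed to compounds in DMSO differed from controls in 1 to 4 members at each concentration, all with libraries that overlapped the controls. DMSO and compound cannot be told apart in these groups, so changes given for them are differences from controls only. Chlorpyrifos, an organophosphate insecticide, at IC5 changed 4 members, where 19.7% of all genes were called. HSPA8 rose by 0.22 ± 0.05 (limma, adjusted p = 0.00018), DNAJB1 by 0.25 ± 0.06 (limma, adjusted p = 0.00152) and HSPA1A by 0.14 ± 0.05 (limma, adjusted p = 0.047), while HSPB1 fell by 0.27 ± 0.09 (limma, adjusted p = 0.0316). The sum of HSPA1A and HSPA1B did not pass (0.11 ± 0.04; limma, adjusted p = 0.0787), and edgeR, which called 3 members, gave HSPA1A an adjusted p of 0.0568. The HSPA1A call was lost without any control but replicate 8 and without chlorpyrifos IC5 replicate 3, 4, 5, 6, 7 or 8, and that of HSPB1 without control replicate 2, 3, 5 or 8 or chlorpyrifos IC5 replicate 3, 4 or 6. At IC20/100 chlorpyrifos changed 2 members, with 14.1% of all genes called: HSPA8 rose by 0.14 ± 0.05 (limma, adjusted p = 0.0406) and HSPD1 fell by 0.10 ± 0.03 (limma, adjusted p = 0.0375). The HSPA8 call was lost in 12 of the 16 fits that left out 1 library of either group (without any control but replicate 7, or without chlorpyrifos IC20/100 replicate 1, 3, 6, 7 or 8), with adjusted p up to 0.106. That of HSPD1 was lost in 9 (without control replicate 1, 4, 5, 6 or 7 or chlorpyrifos IC20/100 replicate 3, 4, 5 or 8), with adjusted p up to 0.105.

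Fluoxetine, a serotonin reuptake inhibitor, changed 4 members at IC20/100, where 14.4% of all genes were called. HSPA8 rose by 0.20 ± 0.05 (limma, adjusted p = 0.00109) and DNAJB1 by 0.21 ± 0.06 (limma, adjusted p = 0.0101). HSPB1 fell by 0.32 ± 0.09 (limma, adjusted p = 0.0111), to 682 ± 55.8. HSF1 fell by 0.27 ± 0.09 (limma, adjusted p = 0.0267), the only exposure that passed for it, and it was lost without control replicate 1, 6 or 8 or fluoxetine IC20/100 replicate 4 or 5 (adjusted p up to 0.0593). At IC5, with 11.4% of all genes called, HSPA1B alone rose, by 0.20 ± 0.06 (limma, adjusted p = 0.0108), to 1673 ± 81.7. The sum of both copies rose by 0.14 ± 0.04 there (limma, adjusted p = 0.0247).

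MeHg, a thiol-binding neurotoxicant, changed 3 members at IC20/100, where 15.8% of all genes were called. HSPA8 rose by 0.21 ± 0.05 (limma, adjusted p = 0.00107), DNAJB1 by 0.21 ± 0.06 (limma, adjusted p = 0.0129) and HSPE1 by 0.22 ± 0.07 (limma, adjusted p = 0.011). Replicate 8 of that group was high in all 3, at 17554, 1437 and 2560. Without it only HSPA8 passed, and DNAJB1 (0.16; limma, adjusted p = 0.0658) and HSPE1 (0.11; limma, adjusted p = 0.0674) did not. At IC5, with 10.9% of all genes called, only DNAJB1 passed (0.18 ± 0.06; limma, adjusted p = 0.0474), and edgeR called 0 members. The call was lost without control replicate 1, 3, 4, 6 or 8, or without MeHg IC5 replicate 1, 2, 3, 4, 6, 7 or 8.

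Between the concentrations, no member differed for these 3 compounds by limma. Chlorpyrifos had 0.0497% of all genes called and 2 members with an unadjusted p under 0.05 (0 by edgeR, 0 by DESeq2). Fluoxetine had 3.76% and 4 members (0 by edgeR, 1 by DESeq2), and MeHg 5.17% and 4 members (0 by edgeR, 1 by DESeq2). The intervals for HSPA8, not adjusted for the number of genes, ran from -0.01 to 0.18 for chlorpyrifos, from -0.21 to -0.02 for fluoxetine and from -0.23 to -0.04 for MeHg. Those of fluoxetine and MeHg leave out 0. HSPA8 was lower at IC5 in 6 of 6 sequencing runs for both, though neither passed after adjustment. Without MeHg IC20/100 replicate 8 in the fit, fluoxetine had 3 members between concentrations, as given at the end.

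The compounds were also compared directly at IC5, which is matched in inhibition and not in molar concentration. Acrylamide and valproic acid were in medium, and chlorpyrifos, fluoxetine and MeHg in DMSO. A pair across these solvents differs in both, so compound and solvent cannot be told apart in it. Over the 10 pairs, 41 of 100 combinations of member and pair differed, against 23.3% of all genes and pairs. Acrylamide differed from chlorpyrifos, fluoxetine, MeHg and valproic acid in 7 members each, where 27.6%, 35.5%, 36.8% and 37.6% of all genes were called. HSPA8, HSP90AA1, HSPH1, DNAJB1 and HSPD1 were higher and HSPB1 lower under acrylamide than under each of the 4. HSPE1 was higher than under 3, and the difference from valproic acid (0.15) did not pass (limma, adjusted p = 0.0611). HSPA1A was lower under acrylamide than under valproic acid, by -0.26 ± 0.05 on the log2 scale (limma, adjusted p = 3.03e-05).

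Valproic acid exceeded fluoxetine and MeHg in HSPA8, HSPA1A and HSP90AA1. The log2 differences of fluoxetine against valproic acid were -0.25, -0.23 and -0.15, with 22.7% of all genes called, and those of MeHg were -0.27, -0.32 and -0.17, with 25.7% called. Chlorpyrifos differed from valproic acid in 3 members (HSPA1A -0.15, HSP90AA1 -0.11, HSPD1 -0.12; 20.4% called) and from MeHg in 3 (HSPA8 0.15, HSPA1A 0.17, HSPD1 -0.12; 11.2% called). It differed from fluoxetine in HSPD1 alone (-0.13; 6.82% called). Fluoxetine and MeHg differed in 0 members (limma; 0 with an unadjusted p under 0.05), with 8.29% called, and the widest interval was that of HSPH1, from -0.41 to 0.56.

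In the order of the 12 group means, few neighbours differed by more than the larger of their SDs. For HSPA8 and HSP90AA1 these were NPC above acrylamide IC5, acrylamide IC5 above valproic acid IC5, and valproic acid IC5 above the next group (chlorpyrifos IC5 at 13693 for HSPA8, fluoxetine IC20/100 at 15719 for HSP90AA1). For HSPA1A the order began with NPC, valproic acid IC5 and chlorpyrifos IC5 (2115, 1504 and 1350), with acrylamide IC5 among the rest. DNAJB1, HSPD1 and HSPE1 began with NPC and acrylamide IC5, and HSPB1 ended with them, at 567 and 501. HSPA1B, HSPH1 and HSF1 had 0 of 11 neighbouring pairs beyond the larger SD.

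Other genes of the folding pathway were counted in 4 lists. In the HSF1-responsive list, 21 genes were tested for control against NPC, of which 4 were higher and 14 lower (median log2 fold change -0.47, against -0.01 for all genes). Called shares over all genes were 33.9% higher and 36.8% lower there. Under acrylamide IC5, 9 of 22 rose and 7 fell (median 0.10, against -0.01), beside 20.5% higher and 21.5% lower over all genes. Both counts and medians include HSPA6, which passed the filter on low values only through the group where it is high. It is 1 of the 9 that rose under acrylamide IC5, and its entry is no support for either count. DNAJA1, an HSP70 J-domain partner, rose from 3976 ± 220 to 5825 ± 169 under acrylamide IC5, by 0.54 ± 0.04 (limma, adjusted p = 9.41e-20), and was called higher in 5 of the 10 exposures. FKBP4, an HSP90 cochaperone of steroid receptors, went the other way: it was 6200 ± 478 in controls and 1569 ± 193 in NPC, and fell to 4086 ± 291 under acrylamide IC5. FKBP4 fell in 9 of the 10 exposures, acrylamide IC20/100 being the exception, and by 0.68 under fluoxetine IC20/100 and 0.65 under chlorpyrifos IC5 against 0.60 under acrylamide IC5. The HSP110-family gene HSPA4L fell in 6 of 10 exposures, by 0.53 ± 0.08 under acrylamide IC5 and 0.66 ± 0.08 under chlorpyrifos IC5. DNAJB5 fell by 0.52 ± 0.06 under acrylamide IC5 and passed in no other exposure. Valproic acid IC5 raised 6 and lowered 3 of 22 (median 0.03), where 26.9% of all genes were called and 14.5% higher. FKBP4 fell by 0.44 ± 0.06 there and CACYBP rose by 0.40 ± 0.06. The 8 other exposures called at most 3 of 22 higher and at most 5 lower, where 0.0596% to 19.7% of all genes were called.

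HSPA6, a strictly inducible HSP70 of the same list, was singled out after its values were seen. It averaged 29.2 ± 6.54 in NPC (276 reads over 8 libraries) and 1.20 ± 1.79 in controls (10 reads, with 5 libraries at 0). Under acrylamide IC5 its 8 libraries ran from 14.1 to 25.0 (157 reads), and in the other exposed groups the means lay between 0.724 and 2.27. All 8 acrylamide IC5 libraries were thus above every control, whose highest was 4.38. No other day 10 group reached the filter value of 10, so the gene entered the test only because it was high here. Apart from its entry in the list counts above, its values are given as a description with no test. Its near copy HSPA7 averaged at most 0.753 in every group.

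Among the cytosolic cochaperones, 1 of 13 was higher and 10 lower in controls than in NPC (median -0.55). Over all genes the shares were 33.9% and 36.8%. Under acrylamide IC5, 8 of 14 rose and 2 fell (median 0.18), where 20.5% and 21.5% of all genes did. HSPA14, a ribosome-associated HSP70, rose by 0.55 ± 0.07 and the exchange factor HSPBP1 by 0.52 ± 0.09 there, and DNAJB2, a neuronal J-domain protein, fell by 0.75 ± 0.05. HSPA14 and HSPBP1 were each called higher in 4 of the 10 exposures and DNAJB2 lower in 4. Under valproic acid IC5, 6 of 14 rose and 2 fell (median 0.09), beside 14.5% of all genes called higher, with HSPBP1 at 0.55 ± 0.09. TRiC is the cytosolic chaperonin that folds actin and tubulin. Beside 36.8% of all genes, all 8 of its subunits were lower in controls than in NPC (median -0.56). Of these, 4 of 8 rose under acrylamide IC5, led by CCT3 (0.42 ± 0.04) and TCP1 (0.34 ± 0.04), and 2 of 8 under valproic acid IC5. None fell in either. TCP1 was called higher in 7 of the 10 exposures and CCT3 in 2.

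Of the other mitochondrial chaperones and proteases, controls had 1 of 10 higher and 3 lower than NPC (median -0.08). Over all genes, 33.9% were called higher and 36.8% lower there. Acrylamide IC5 raised 2 and lowered 2 of 10 (median -0.16), close to the 20.5% and 21.5% of all genes: GRPEL1, the exchange factor of mitochondrial HSP70, rose by 0.41 ± 0.12 and HSCB by 0.38 ± 0.10, while CLPB fell by 0.65 ± 0.15 and LONP1 by 0.16 ± 0.06. Valproic acid IC5 raised 2 and lowered 3 of 10 (median -0.07), where 26.9% of all genes were called and 14.5% higher. GRPEL1 was at 0.42 ± 0.11 there and the mitochondrial HSP70 itself, HSPA9, at -0.57 ± 0.18 (limma, adjusted p = 0.0102). HSPA9 was called lower in 3 of the 10 exposures and LONP1 in 5.

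The genes most like each member were ranked by Pearson's r over the 11 fitted day 10 group means, among 12499 genes with a mean of at least 100. These values describe 11 points in which acrylamide IC5 carries much of the spread. HSPA8 was closest to PSMC3 (0.979), DNAJA1 and LIG1 (both 0.975), and HSPH1 to HSPA14 (0.990), DNAJA1 (0.976) and LIG1 (0.975). HSP90AA1 was closest to FGFR2 (0.986), FOXM1 (0.971) and STIP1 (0.969), and DNAJB1 to BAK1 (0.988), GPR137 (0.980) and FAM161A (0.976). HSPD1 was closest to HHAT, ENPP2 (both 0.966) and ST13 (0.965), and HSPE1 to INPP5F (0.964), CYB5B (0.962) and EME2 (0.961). HSPB1 was closest to CHCHD6 (0.962), ACP6 (0.955) and EXD3 (0.950).

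The remaining members followed other genes. HSPA1A was closest to RGL2 (0.964), THEM6 (0.946) and DDC (0.936), HSPA1B to R3HCC1 (0.918), STX10 (0.890) and FAM210B (0.870), and HSF1 to BSCL2 (0.905), AHNAK2 (0.892) and PARD3B (0.891). Among the members, the group means of HSPA8 correlated with those of HSPH1 at 0.950 and of HSPB1 at -0.809, and DNAJB1 with HSPB1 at -0.911. Within groups, across the 88 libraries, HSPA8 correlated with HSPE1 at 0.759 and with HSP90AA1 at 0.654, and without MeHg IC20/100 replicate 8 at 0.672 and 0.666. HSPB1 correlated with HSPE1 at 0.631 with that library and 0.244 without it.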

How the data were processed

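The deposited table holds a signal in which the authors had scaled each library's gene counts by its own size factor, under versioned Ensembl identifiers in 96 columns. Per the submitters' processing notes, bcl2fastq, FastQC 0.11.8, MultiQC 1.0, Salmon 1.3.0, DESeq2 1.30.0 and GRCh38 were used. No source used here names the annotation release. Every positive value was a whole multiple of its library's smallest step (100% within 0.001 read), so reads were recovered for edgeR 4.0.16 and DESeq2 1.42.0 as alternatives. For acrylamide IC5 against control, edgeR called 8452 of 20136 genes.

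The test was limma 3.58.1 in R 4.3.3, on log2(value + 2) with a trended prior and group and sequencing run as terms. A gene was kept where 8 or more libraries of the fit had 10 or more. P-values were adjusted by Benjamini-Hochberg over all genes tested and called under 0.05. Control against NPC used 16 libraries (18063 genes, 9 residual degrees of freedom), and exposures all 88 day 10 libraries (20136 genes, 72 residual degrees of freedom). The scripts were tested on simulated data. Of 336 pairs of libraries within groups, none differed by counting error alone (lowest chi-square per degree of freedom 16.7).

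Symbols and positions come from GENCODE 29, matched for 58171 of 58434 identifiers, and promoters from RefSeq. Members and lists were chosen with earlier results of these data known. Named are all members, the 3 genes most like each, and up to 4 called genes per list with the largest changes and a mean of at least 100. Replicate numbers showed at most a weak pairing of libraries, and no pairing was used.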

Additional observations from a re-analysis of the deposited data

Results flagged for a closer look

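In each group of 8 libraries the gap of the highest or lowest library to its neighbour was compared with Dixon's 95% critical value. Of 120 combinations of member and group, 18 had a library apart, 16 high and 2 low, where chance gives about 1 in 20, or 6. MeHg IC20/100 replicate 8 accounts for 5: HSPA1A 1873 (others 1183 to 1446), HSPA1B 2361 (1429 to 1527), DNAJB1 1437 (960 to 1155), HSPB1 1896 (678 to 850) and HSPE1 2560 (1225 to 1367).

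HSPH1 accounts for 4: 4690 in acrylamide IC20/100 replicate 1 (others 1164 to 1271), 4825 in fluoxetine IC20/100 replicate 2 (1355 to 1683), 2708 in MeHg IC5 replicate 1 (1344 to 1504) and 4112 in valproic acid IC20/100 replicate 1 (1185 to 2352). HSPA8 was 14057 in control replicate 7 (others 11258 to 11648). Acrylamide IC5 replicate 7 was high in DNAJB1, at 1817 (1349 to 1516), and in HSF1, at 1718 (1205 to 1389), and acrylamide IC20/100 replicate 8 in DNAJB1, at 1085 (833 to 938). HSPA1A was high in fluoxetine IC5 replicate 3, at 1538 (1182 to 1322), and NPC replicate 3, at 2405 (1983 to 2161). HSPD1 was high in valproic acid IC20/100 replicate 8, at 9211 (7243 to 8081). The low libraries were NPC replicate 5 for HSPD1, at 9810 (10149 to 10412), and valproic acid IC5 replicate 4 for HSPA1B, at 1325 (1486 to 1580).

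In direct tests between compounds at IC5 (limma), 41 combinations of member and pair differed, most of them between acrylamide and another compound. Some pairs also differ in solvent.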

How the results depend on the processing

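With 1 control, exposed or NPC library left out in turn, the number of members called ranged from 10 to 10 for control against NPC, 7 to 7 for acrylamide IC5, 0 to 0 for acrylamide and valproic acid IC20/100, 4 to 5 for valproic acid IC5, 0 to 2 for chlorpyrifos IC20/100, 2 to 4 for chlorpyrifos IC5, 3 to 4 for fluoxetine IC20/100, 1 to 2 for fluoxetine IC5, 1 to 3 for MeHg IC20/100 and 0 to 1 for MeHg IC5. Between concentrations it was 7 to 8 for acrylamide, 5 to 5 for valproic acid, 0 to 0 for chlorpyrifos, and 0 to 1 for fluoxetine and MeHg, and over compound pairs 40 to 42. Chlorpyrifos IC20/100 had 0 without control replicate 1 or 6 or its own replicate 8, and 1 without any other control or its own replicate 1, 3, 4, 5 or 7. Without control replicate 4 or 5 or its own replicate 3, that member was neither HSPA8 nor HSPD1. Chlorpyrifos IC5 had 2 without control replicate 2, 3 or 5 or its own replicate 6, and fluoxetine IC5 had 2 without control replicate 7 or its own replicate 1. Between concentrations, fluoxetine had 1 without its IC5 replicate 2 and MeHg 1 without its IC20/100 replicate 2.

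With no filter on low values, chlorpyrifos IC20/100 had 0 members (2 as reported), chlorpyrifos IC5 2 (4) and MeHg IC5 0 (1). With no run term, chlorpyrifos IC20/100 had 1, which was neither HSPA8 nor HSPD1 as reported, and MeHg IC5 had 0. With only the libraries of the groups compared, chlorpyrifos IC20/100 had 0, MeHg IC20/100 0 (3), fluoxetine IC5 2 (1), MeHg IC5 2 and fluoxetine between concentrations 1 (0). edgeR gave MeHg IC5 0, and DESeq2 gave fluoxetine and MeHg between concentrations 1 each (0). Without MeHg IC20/100 replicate 8, an alternative chosen after seeing the data, chlorpyrifos IC20/100 had 5, fluoxetine IC5 2, MeHg IC5 4 and fluoxetine between concentrations 3. The causes were not tested.

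Replicate numbers showed at most a weak pairing of libraries. Deviations of libraries with the same number correlated with a median of at most 0.125 (control against NPC), where other numbers gave 0.0817. There 1 of 8 libraries matched best with its own number, against 4 of 8 for chlorpyrifos and for MeHg between concentrations (medians 0.0397 and 0.0326). For chlorpyrifos IC5, fluoxetine IC20/100 and valproic acid IC5 the numbers follow the same runs as in controls, so the run term can hide a pairing. A weak pairing was thus not excluded. With a replicate block, fluoxetine IC5 had 2 members and MeHg between concentrations 1, and the other counts stayed within 1.5 times those reported. Over all genes the block gave more calls in each exposure against control, such as 616 against 511 for valproic acid IC20/100.

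Of 160 member values, 50 were called. Over all alternatives, called values kept their call 1115 times and lost it 100 times, and others gained one 36 times. Of these, 0 changed direction, and values called in neither fit were not compared for direction. Members are deep enough that counting error is small, and the split of HSPA1A and HSPA1B is uncertain at any depth.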
